A study of Homo sapiens with 16 samples.

Results

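The clustered protocadherin locus was taken as every listed peak overlapping chromosome 5 from 140.16 to 140.9 Mb (hg19), a stretch of 0.74 Mb. It held 55 of the 114213 peaks listed on chromosomes 1 to 22 and X. TC-32 contributed 9 SMC1 peaks and 16 H3K27ac domains, TC-71 contributed 11 SMC1 peaks and 19 H3K27ac domains, and BORIS contributed 0 in either line. Both lines are established Ewing sarcoma cell lines, a bone and soft tissue tumour; per the labels TC-32 was derived at diagnosis and TC-71 after chemotherapy. The labels name no agent or edited allele, and the groups differ by line and antibody. Chromatin from 16 samples (2 per line for BORIS, SMC1, H3K27ac and input) was sequenced, and the samples of a line and antibody share 1 peak list called against input of that line. No value therefore has a replicate error, and no test between the lines was possible. Each share comes with an exact binomial 95% interval (Clopper-Pearson), which holds counting error alone, and read depth is unknown.

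Clustered protocadherins are cell-surface adhesion proteins that give neurons individual identities: each cell chooses a few isoforms from a large array of alternative first exons. In the PCDHA and PCDHG clusters each variable first exon has its own promoter and is spliced to shared constant exons, while PCDHB genes are single-exon units. CTCF binds most of these promoters and distal enhancers, and cohesin, of which SMC1 is a ring subunit, brings them into contact by loop extrusion. BORIS (CTCFL) is a germ-line paralog of CTCF with a closely related DNA-binding domain, and acetylation of histone H3 at lysine 27 (H3K27ac) is found at promoters and enhancers in use.

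The locus has 53 genes here, 15 in PCDHA (PCDHA1 to PCDHA13 with the C-type PCDHAC1 and PCDHAC2), 16 in PCDHB (PCDHB1 to PCDHB16) and 22 in PCDHG (the PCDHGA and PCDHGB genes with the C-type PCDHGC3, PCDHGC4 and PCDHGC5). In the RefSeq gene order the coding genes SLC25A2 and TAF7 lie between the PCDHB and PCDHG clusters, and DIAPH1 follows the last PCDHG gene. The gene and promoter tables are of build GRCh38.p14, while the peaks are hg19, so no peak was assigned to a gene. The locus was instead divided at round positions from general knowledge of the hg19 map into a PCDHA stretch (140.16 to 140.43 Mb, with the sequence downstream of the cluster), a PCDHB stretch (140.43 to 140.63 Mb), an interval between PCDHB and PCDHG (140.63 to 140.71 Mb) and a PCDHG stretch (140.71 to 140.9 Mb).

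The promoters of these genes are shown first because their shared letters are the known ground for CTCF and cohesin at this locus. RefSeq promoters (GRCh38.p14, chromosome 5, 250 bases before to 50 after a start) were matched for 47 of the 53 genes, all on the + strand. Not matched were PCDHA3, PCDHA13, PCDHB6, PCDHB11, PCDHGA12 and PCDHGC5. Below are 30 bases, 5′ to 3′ on the + strand, from the first 4 genes per cluster whose promoter holds the 8-base word most shared within that cluster and whose window lies wholly before the start, which leaves out PCDHB5. Capitals mark that word. Where words were shared by equally many genes, one holding CGCT was preferred. Each window was cut to put CGCT at bases 17 to 20.
PCDHA1: attggccacatgATGTCGCTgtacaccaca
PCDHA2: tttagccacatgATGTCGCTgtccaccata
PCDHA4: tggagccacatgATGTCGCTctttaccaca
PCDHA5: ttcatccacatgATGTCGCTggacaccgga
PCDHB2: aagagacgcgggGTGGCGCTgcagccttag
PCDHB3: agcgaacgcatgGTGGCGCTgttgactaag
PCDHB4: tcaagacgcaggGTGGCGCTgcaggctaag
PCDHB7: acaaaacgcaagGTGGCGCTgctggctaaa
PCDHGA1: ttaggactgtgggcGCCGCTGTtcactaat
PCDHGB1: gacaacctctgggcGCCGCTGTcgaccaaa
PCDHGA7: taaggactcacagcGCCGCTGTtcaccaac
PCDHGB4: tgctgactctgggcGCCGCTGTtggccaaa

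Each cluster had a word of its own holding CGCT, which the choice among equally shared words favoured. On either strand ATGTCGCT was in 9 of 13 PCDHA genes, in 0 PCDHB or PCDHG genes and in 0.282% of the 27305 genes of the table. The word GTGGCGCT was in 13 of 14 PCDHB genes, 0 of the others and 1.38% of all genes. The word GCCGCTGT was in 11 of 20 PCDHG genes, 0 of the others and 1.98% of all genes. These words were picked from the same promoters, so the counts describe them and test nothing. The words began upstream of the start, at a median of 52 bases before it in PCDHA, 65 in PCDHB and 70 in PCDHG. Counted from the start, they began from -85 to -42 in PCDHA, -83 to -1 in PCDHB and -222 to -42 in PCDHG. A word beginning at -1 runs past the start. The PCDHA word was missing from PCDHA9, PCDHA11 and both C-type genes PCDHAC1 and PCDHAC2, and PCDHB1 was the only PCDHB gene matched without its word.

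The 4 letters CGCT alone were common. They were in 12 of 13 PCDHA genes (all but PCDHA9), 14 of 14 PCDHB genes and 20 of 20 PCDHG genes, against 71.9% of all genes. Short pieces of the CTCF consensus, searched on both strands, were rare in these windows. GGNGGCAG was found in PCDHGC4 alone, against 19.3% of all genes, and CNAGNGGGC in PCDHAC1 alone, against 10.4%. A match or its lack describes only these letters in this window.

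**Figure D1:**
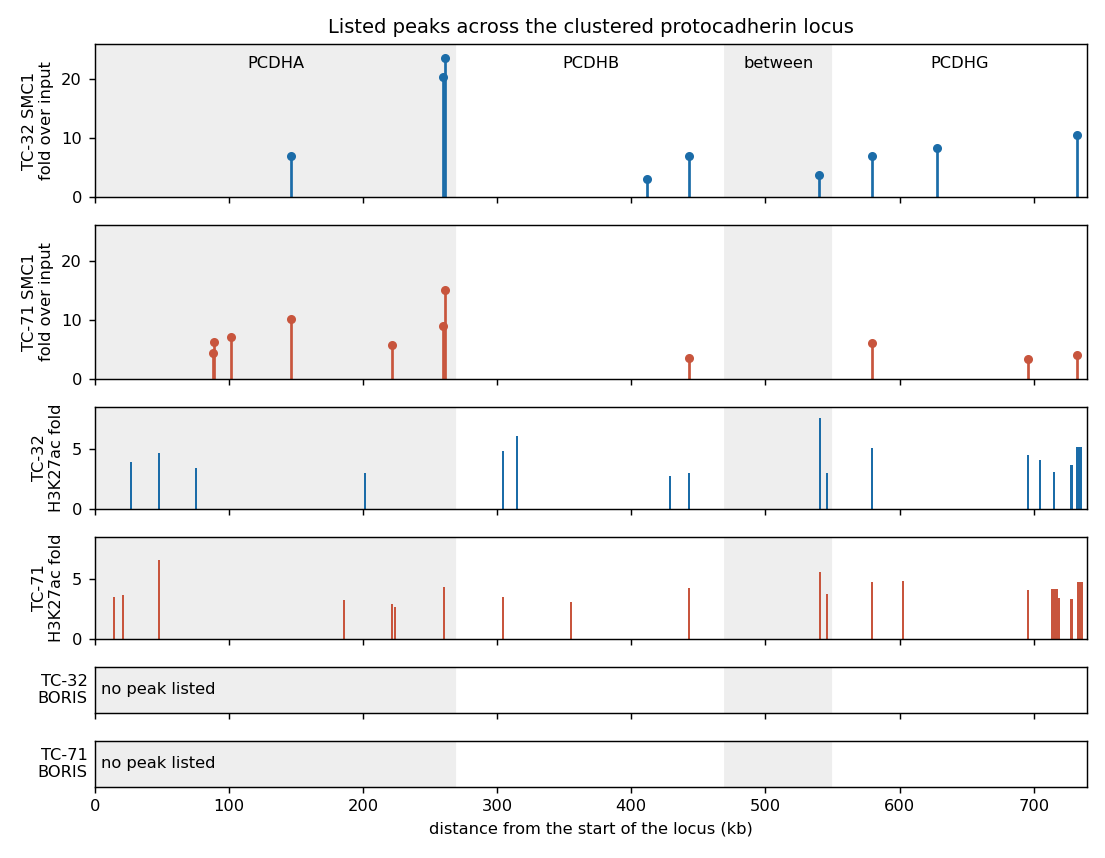
Listed peaks by distance from the start of the locus (kb). Stems give the authors' fold enrichment of SMC1 summits, bars that of H3K27ac domains (narrow bars are drawn wider than to scale), and alternate shading marks the 4 stretches. The stem at 261 kb is the tallest SMC1 peak in both lines, its partner at 260 kb is the next in TC-32, and no BORIS peak is listed.

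SMC1 marked 14 separate sites over both lines, 6 of them listed in both, 3 in TC-32 alone and 5 in TC-71 alone. They were unevenly spread. The PCDHA stretch held 7 sites, PCDHB 2, the interval between PCDHB and PCDHG 1, and PCDHG 4. Each peak is described by the authors' fold enrichment over input and by its rank percentile, the place of its −log10 q in the list of its own line, where 100 is the highest. The lists differ in length (32720 SMC1 peaks in TC-32 and 18264 in TC-71), so percentiles are read within a line and not between lines.

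The highest-ranked cohesin sites of the locus were a pair at the far end of the PCDHA stretch. At 140419758 to 140420117 the fold was 20.4 in TC-32 (rank percentile 97.1) and 8.83 in TC-71 (94.9). At 140420740 to 140421122 it was 23.5 in TC-32 (98.5) and 14.99 in TC-71 (96.7). The summits of the pair stood 0.987 kb apart in TC-32 and 1.001 kb apart in TC-71, a distance shorter than nearly all others, since 3.71% of SMC1 distances in the TC-32 list and 1.3% in the TC-71 list were shorter. As background, the sequence between the PCDHA constant exons and PCDHB1 holds the HS5-1 enhancer, which has a pair of CTCF sites; overlap with it was not tested. No other site of the locus was above a rank percentile of 73.3 in TC-32 or 89.4 in TC-71.

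A further site of both lines lay within the PCDHA stretch at 140306073 to 140306352. Its fold was 6.98 in TC-32 and 10.1 in TC-71, and its rank percentile was 50.6 in TC-32 against 89.4 in TC-71. Its summits in the lines were 1 bp apart.

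The other 4 PCDHA sites were listed in TC-71 alone. They lay at 140248361 to 140248646 (fold 4.37), 140249060 to 140249203 (fold 6.27), 140261591 to 140261797 (fold 7.13) and 140381603 to 140381736 (fold 5.71). The first and second of these had summits only 0.651 kb apart, the closest neighbours of the locus. Their −log10 q values ran from 8.86 to 13.6. Their rank percentiles ran from 27.1 to 49.8. The closest TC-32 summit was 38294 bp or more from each of them. Absence from a list says that no peak passed the caller's threshold, and not that no cohesin was present.

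The PCDHB stretch held 1.0 SMC1 peak per 100 kb in TC-32 and 0.5 in TC-71. For scale, and per window rather than per 100 kb, the median window of 0.74 Mb with any listed peak held 8 and 4. The PCDHB densities rest on 2 peaks in TC-32 and 1 in TC-71. Those counts became 1 and 0 with −log10 q of at least 5, and 3 and 2 with borders moved 10 kb down. Likeness to the genome at large therefore could not be judged. Its 1 site of both lines was at 140602787 to 140603053, with a fold of 7.02 in TC-32 (rank percentile 44.2) and 3.55 in TC-71 (2.95). A site listed in TC-32 alone, at 140571827 to 140571973, was close to the bottom of its list (fold 3.15, rank percentile 1.83). Between PCDHB and PCDHG the only site, at 140699826 to 140699963, was in TC-32 alone with a fold of 3.78 (rank percentile 6.27).

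The PCDHG stretch had 2 sites of both lines. At 140739385 to 140739981 the fold was 6.99 in TC-32 (rank percentile 48.6) and 6.09 in TC-71 (31.3). At 140891897 to 140892265, near the end of the locus, where the known map has the constant exons of PCDHG, it was 10.5 in TC-32 (73.3) and 3.97 in TC-71 (36.9). In TC-32 alone the site at 140787411 to 140787627 was in the upper part of its list (fold 8.33, rank percentile 55.1). In TC-71 alone the site at 140855346 to 140855537 was near the bottom (fold 3.24, rank percentile 3.55).

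**Figure D2:**
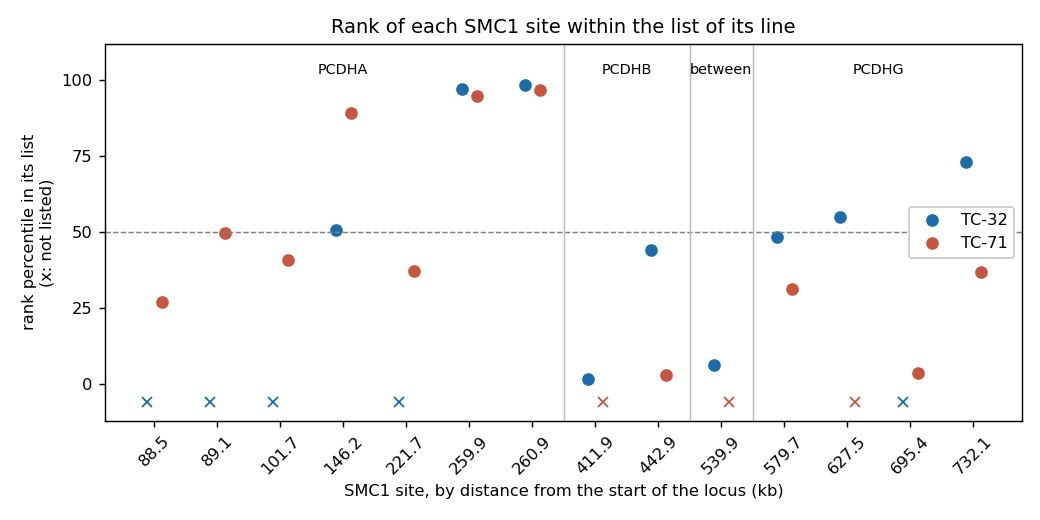
Rank percentile of each SMC1 site within its own list (vertical axis, crosses mark a line in which the site is not listed), with sites ordered by distance from the start of the locus in kb. The pair at 259.9 and 260.9 kb is at 94.9 or above in both lines, and the 4 sites with a TC-32 cross on the left are in PCDHA. The lists differ in length, so heights are read within a line.

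At the 6 sites of both lines the summits coincided closely, with a median offset of 7 bp and a range of 1 to 21 bp. Over all 16495 such sites of the lists the median offset was 9 bp. The medians over all peaks of the locus were ordinary for the lists: fold 7.02 against a list median of 6.48 in TC-32, and 6.09 against 6.16 in TC-71. The median rank percentile was 50.6 in TC-32 and 37.4 in TC-71, so most TC-71 peaks here ranked low, with 3 of 11 above the middle.

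Spacing between cohesin peaks differed between the lines. In TC-71 the median distance between neighbouring SMC1 summits at the locus was 41.4 kb over 10 distances, against 79.4 kb over its list and 104.8 kb on chromosome 5. In TC-32 it was 72.5 kb over 8 distances, against 44.8 kb over its list and 50.3 kb on chromosome 5. With SMC1 intervals within 1 kb of each other merged, the locus medians were 60.0 kb in TC-71 and 97.0 kb in TC-32. The closer spacing in TC-71 came from PCDHA, where 6 distances had a median of 25.4 kb and none exceeded 75.5 kb. Among these 6 were distances of 0.651 and 1.001 kb within close pairs. In TC-32 the same stretch had only the pair and a distance of 113.8 kb to the site before it. In PCDHG both lines had 2 distances with a median of 76.3 kb. They were 48.0 and 104.5 kb in TC-32 and 115.9 and 36.6 kb in TC-71.

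The longest stretches without a listed cohesin peak reached from before the locus into the PCDHA stretch. Shorter ones lay on the PCDHB side. From the pair to the next site was 151.0 kb in TC-32 and 181.9 kb in TC-71, longer than 83.6% and 75.5% of the distances in the lists. TC-71 then had another 136.6 kb to its first PCDHG site, longer than 67.0%. Upstream, the first SMC1 summit of the locus stood 291.4 kb from the preceding one in TC-32 and 511.1 kb in TC-71. Of the distances in the lists, 94.8% in TC-32 and 94.6% in TC-71 were shorter than these. From the start of the locus, the side of PCDHA1 in gene order, no SMC1 peak was listed until 88.5 kb in TC-71 and 146.2 kb in TC-32. Downstream, the next SMC1 summit was 12.4 kb from the last one in both lines.

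The lines were then compared in the number of cohesin peaks. The locus had more SMC1 peaks in TC-71 (11) than in TC-32 (9), although the TC-32 list was longer (32720 against 18264). Windows of the same length were tiled over the genome for comparison, a count added after seeing the data. Windows without a peak in any list were left out. In 88 of the 2445 windows with at least 10 SMC1 peaks over both lines (3.6%) TC-71 had more. The TC-71 count exceeded that of 91.5% of 3787 windows and the TC-32 count that of 53.1%. In the flank of the same length upstream the counts were 14 in TC-32 and 7 in TC-71, and in the flank downstream 24 and 15. With both lists at equal length the locus held 6 TC-32 and 11 TC-71 peaks. Which line had more depended on the stretch. PCDHA had 3 in TC-32 and 7 in TC-71, PCDHB 2 and 1, the interval between PCDHB and PCDHG 1 and 0, and PCDHG 3 and 3.

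**Figure D3:**
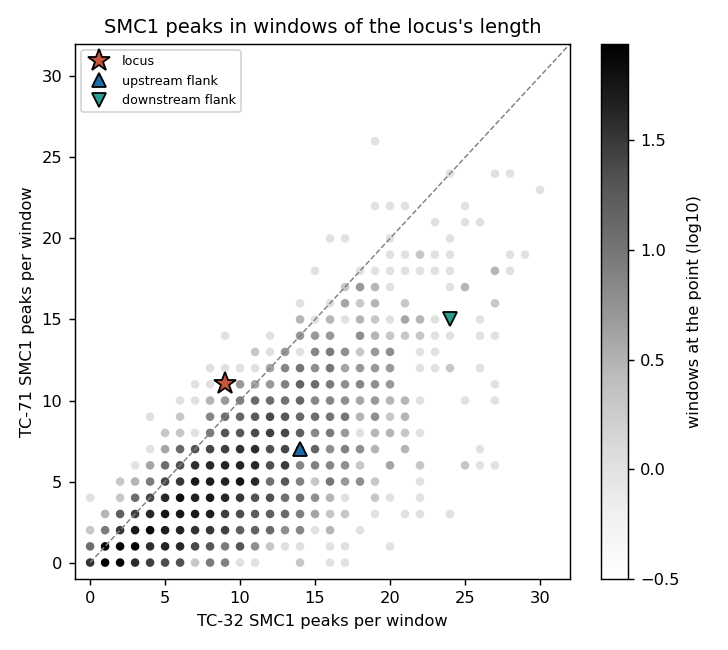
SMC1 peaks per window of the locus's length over the genome, TC-32 on the horizontal and TC-71 on the vertical axis; darker points hold more windows (log10 scale) and the dashed line marks equal counts. The locus, at 9 and 11, lies above the line, while its flanks, at 14 and 7 upstream and 24 and 15 downstream, lie below it.

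Some SMC1 peaks of each line had no listed partner in the other. Of the TC-71 SMC1 peaks 6 of 11 overlapped a TC-32 peak (54.5%, interval 23.4 to 83.3%), against 90.3% over the list. In the lower part of the list by rank, where most of these peaks stood, 3 of 8 had a partner, against 83.9% of that part of the list. At equal list length, the shares were 45.5% at the locus and 74.9% over the list, and the second value lies inside the interval. In the other direction 6 of 9 TC-32 peaks overlapped a TC-71 peak (66.7%, interval 29.9 to 92.5%), against 50.3% over the list. These peaks are neighbours in 1 region and are not independent, and the difference from the list was not tested.

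BORIS had no peak (0) in the locus in either line. The 6 TC-32 peaks include 0 on chromosome 5, and the 534 TC-71 peaks include 20. The nearest TC-71 peaks lay 1.43 Mb upstream (138729958 to 138730046, fold 5.19) and 4.37 Mb downstream (145267711 to 145267804, fold 4.17). None of the 14 cohesin sites therefore had a listed BORIS peak, and no BORIS spacing could be given. Windows of this length that hold a TC-71 BORIS peak were 11.4% of the 3787 with any listed peak, so a window without one was the common case.

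H3K27ac domains were counted over the same stretches. Merged over both lines, 25 acetylated domains were found, 10 of them in both, 6 in TC-32 alone and 9 in TC-71 alone. PCDHA held 10, PCDHB 5, the interval between PCDHB and PCDHG 2, and PCDHG 8. Domains covered 14.3 kb of the locus in TC-32 (1.94%) and 19.7 kb in TC-71 (2.66%). They were narrow: the median width was 514.5 bp in TC-32 against 1269 bp over the list, and 422 bp in TC-71 against 1146 bp, and 14 of 16 and 15 of 19 were narrower than those medians. The number of TC-71 domains exceeded that of 91.3% of windows, and the number of TC-32 domains that of 78.1%. With −log10 q of at least 5 in every list the order of the lines turned, with 12 domains in TC-32 and 11 in TC-71.

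Few acetylated domains of the PCDHA stretch were listed in both lines. Of its 10 merged domains only 1 was listed in both, at 140207553 to 140208052, with a fold of 4.61 in TC-32 (rank percentile 65.3) and 6.54 in TC-71 (78.4). Shared were thus 1 of 4 TC-32 and 1 of 7 TC-71 domains, against 47.1% and 67.3% over the lists. The list shares varied with strength: with −log10 q of at least 5 in both lists they were 56.3% and 82.6%. The difference from the lists was not tested. TC-32 alone had 3, at 140186700 to 140187153 (fold 3.91), 140235612 to 140235870 (3.39) and 140361449 to 140361641 (2.99). TC-71 alone had 6, with folds from 2.67 to 4.30. Rank percentiles ran from 6.91 to 63.75 in the domains of TC-32 alone and from 0.351 to 65.95 in those of TC-71 alone. None of the domains of either line in this stretch reached the median width of its list. TC-32 domains covered 0.51% of the stretch and TC-71 domains 1.54%. With −log10 q of at least 5 the stretch had 3 domains in each line.

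Of the cohesin pair downstream of PCDHA, only the first peak overlapped a listed domain of its own line, and only in TC-71. A TC-71 domain at 140419773 to 140420755 (983 bp, fold 4.30, rank percentile 65.95) overlapped the first TC-71 peak of the pair and ended 196 bp before the summit of the second, short of that peak. In TC-32, where the same SMC1 peaks had folds of 20.4 and 23.5, the nearest domain was 43265 bp from the second summit. The site at 140381603 to 140381736, with an SMC1 peak listed in TC-71 alone, likewise lay in a domain listed in TC-71 alone (140381194 to 140382203, fold 2.88, rank percentile 12.1). The site at 140306073 to 140306352 had its nearest domain 39539 bp away in TC-71 and 55246 bp away in TC-32. In the same stretch 0 of 3 TC-32 and 2 of 7 TC-71 SMC1 peaks overlapped a domain of their line.

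In the PCDHB stretch 2 of 5 domains were shared. At 140464212 to 140464691 the fold was 4.80 in TC-32 and 3.48 in TC-71. At 140602950 to 140603286, beside the cohesin site of both lines, it was 2.99 in TC-32 and 4.21 in TC-71. The strongest PCDHB domain, at 140474215 to 140474764 (fold 6.02, rank percentile 88.1), was listed in TC-32 alone, as was the weak one at 140588362 to 140588639 (fold 2.72). TC-71 alone had a domain at 140514881 to 140515135 (fold 3.05). Coverage was 0.801% of the stretch in TC-32 and 0.42% in TC-71, the reverse of the order in PCDHA.

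Both domains between PCDHB and PCDHG, where SLC25A2 and TAF7 lie in the gene order, were shared. The one at 140699877 to 140700821 had the highest H3K27ac rank of the locus in both lines, with a fold of 7.55 in TC-32 (rank percentile 95.6) and 5.53 in TC-71 (88.9). The other, at 140705820 to 140706126, had folds of 2.96 and 3.71. The borders of this interval are approximate: moved 10 kb down, they left 0 domains of either line in it, and no gene was assigned to these domains.

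Most acetylated bases were in the PCDHG stretch, at 10115 bp in TC-32 and 13609 bp in TC-71, which is 5.32% and 7.16% of it. Of its 8 merged domains 5 were shared. The shared one at 140891810 to 140896365 was 4375 bp in TC-32 (fold 5.16) and 4494 bp in TC-71 (fold 4.71), and it was the domain nearest to the end of the locus, the side of DIAPH1 in the gene order. At 140872847 to 140877837 TC-71 had a domain of 4991 bp (fold 4.16), while TC-32 had 1155 bp there (fold 3.04). The domain at 140739494 to 140740042 had a fold of 5.06 in TC-32 and 4.70 in TC-71. Those at 140855091 to 140856538 and at 140887089 to 140889387 had folds of 4.44 and 3.63 in TC-32, and of 4.04 and 3.35 in TC-71.

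The remaining PCDHG domains were listed in 1 line. TC-32 alone had 140864216 to 140864996 (fold 4.08, rank percentile 59.7). TC-71 alone had 140762209 to 140762478 (fold 4.79, rank percentile 63.5) and 140878676 to 140878879 (fold 3.37, rank percentile 30.5). All 4 domains of the locus wider than 1146 bp in TC-71, and the 2 wider than 1269 bp in TC-32, were in PCDHG.

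Over the locus 10 of the 16 domains of TC-32 were also found in TC-71 (62.5%, interval 35.4 to 84.8%), against 47.1% over the list. In TC-71 it was 10 of 19 (52.6%, 28.9 to 75.6%), against 67.3%. Both list shares lay inside the intervals. By bases, 74.7% of the TC-32 and 54.5% of the TC-71 acetylated sequence of the locus was covered in both lines, against 42.5% and 65.1% over the lists.

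About as many cohesin peaks of the locus overlapped an acetylated domain, by at least 1 bp, as did not. Some of the overlapping peaks had their summit outside the domain. In TC-71, 6 of 11 SMC1 peaks overlapped a domain of the line (54.5%, interval 23.4 to 83.3%), against 13.6% over the list and 15.4% in its lower part by rank. In TC-32 it was 4 of 9 (44.4%, 13.7 to 78.8%), against 25.9%. By rank in TC-32 it was 3 of 4 in the lower part of the list, against 35.9% of that part. In the upper part it was 1 of 5, against 15.9%. Seen from the domains, 6 of 19 in TC-71 overlapped an SMC1 peak (31.6%, 12.6 to 56.6%), against 8.84%. In TC-32, 4 of 16 domains did (25%, 7.27 to 52.4%), against 19.1%. With −log10 q of at least 5 in every list, 3 of 9 TC-71 SMC1 peaks (33.3%) overlapped a domain, against 9.93% over the list. In TC-32, 2 of 7 SMC1 peaks did (28.6%), against 19.1%. These comparisons with the list were not tested, and the TC-32 intervals include the list value.

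**Figure D4:**
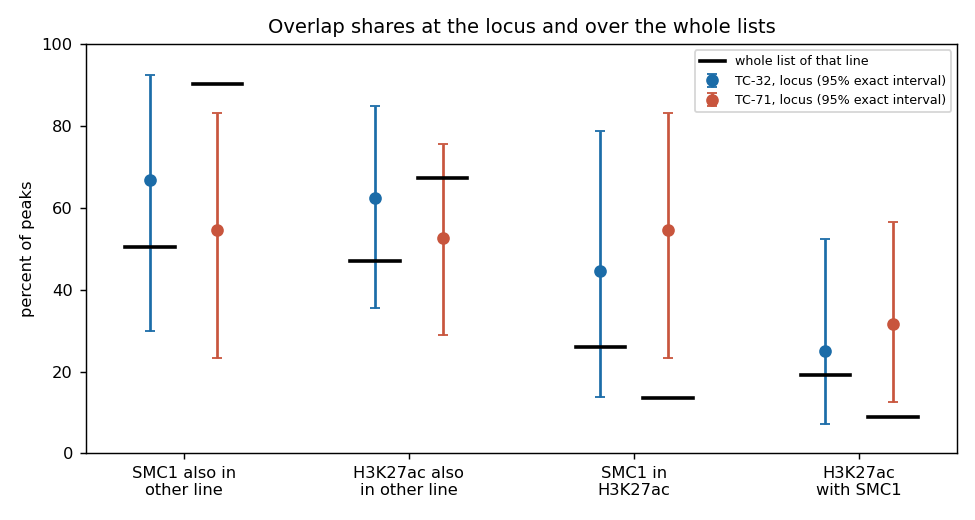
Percent of peaks at the locus in each overlap class, by line, with exact 95% intervals (points and bars), and the percent over the whole list of that line (black lines). For TC-71, the list value of 90.3% for SMC1 in the other line lies above the locus interval drawn. At equal list length that list value was 74.9%, inside the interval drawn. The TC-71 list values of 13.6% and 8.84% for SMC1 with H3K27ac lie below their intervals. The intervals hold counting error alone, neighbouring peaks are not independent, and no difference from the lists was tested.

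Of the stretches, PCDHG had the largest number of these overlaps in each line. There 2 of 3 TC-32 and 3 of 3 TC-71 SMC1 peaks overlapped a domain, and in PCDHB 1 of 2 and 1 of 1. Some summits stood close to an edge of the domain, inside or outside it. At 140602787 to 140603053 the summit stood 77 bp before the left edge of the domain in TC-32 and 96 bp before it in TC-71. At 140739385 to 140739981 it was 11 bp inside the left edge in TC-32 and 71 bp before it in TC-71. The TC-71 peak there has 2 summits, and only the one of highest −log10 q was placed. At 140699826 to 140699963 it was 42 bp inside the left edge in TC-32. At the pair downstream of PCDHA the TC-71 summits were 177 bp inside the left edge and 196 bp beyond the right edge.

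Counted over summits within 500 bp of a domain, 3 of 4 in TC-32 (75%, interval 19.4 to 99.4%) and 4 of 7 in TC-71 (57.1%, 18.4 to 90.1%) were within 200 bp of an edge, against 17.0% and 27.3% over the lists. This count was chosen after the positions were seen, so it describes them and tests nothing. Both TC-71 summits of the pair downstream of PCDHA are counted at the same domain, and the summits are not independent. Most domains here were narrower than the list medians, and the part of width in the result was not tested. The summits at 140891897 to 140892265 were 255 bp (TC-32) and 214 bp (TC-71) inside the left edge of domains over 4 kb wide.

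**Figure D5:**
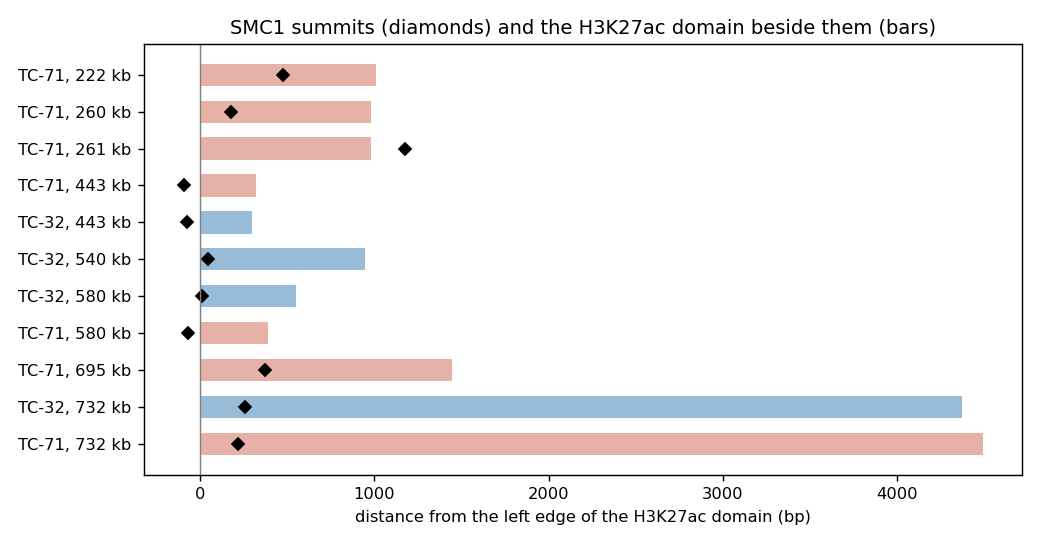
SMC1 summits (diamonds) within 500 bp of an H3K27ac domain of the same line, placed by distance in bp from the left edge of that domain (bars), for each line and site named by its kb from the start of the locus. At 443, 540 and 580 kb the summits are within 96 bp of the left edge, and in the widest domains, at 732 kb, they are 255 and 214 bp inside it. Where a peak has several summits, the one of highest −log10 q is drawn.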

How the data were processed

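Chromatin immunoprecipitation with sequencing covered BORIS, SMC1, H3K27ac and input in TC-32 and TC-71, 2 samples each. Tools listed in the submitters' processing notes are MACS2 2.1.1, STAR 2.5.1b, SAMtools 1.3.1, deepTools 2.2.4 and Picard, with hg19 as the build. Their settings, and the way the samples of a list were joined, are not stated there. The authors deposited per peak a score (10 times the −log10 q without decimals), a fold enrichment (ratio) over input, −log10 p and −log10 q, and for narrow peaks a summit offset.

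Peaks on chromosomes 1 to 22 and X were read from 6 lists. Intervals with several summits counted as 1, with the values of the summit of highest −log10 q. A peak belongs to the stretch that holds its summit, a domain to that of its midpoint. Overlap meant at least 1 bp. The overlap code made 0 wrong calls on 5000 simulated sites. Peaks named are the 3 of highest −log10 q per stretch, line and antibody, the widest domain, the highest 3 SMC1 peaks of 1 line and those at the widest gaps; the few others named were chosen after their values were seen. Members, borders, motifs and lists were chosen with earlier results of these data known. The alternatives were a stricter threshold (−log10 q from 5 up), overlap over 50% of the peak, a distance of 500 bp, lists cut to equal length, every summit, merging within 1 kb, borders moved by 10 kb and shifted windows. Counts at equal length, the split by rank, the count by line over windows and the edge count were added after seeing the data. Computation used Python 3.11.15 with matplotlib 3.10.9, scipy 1.17.1, pandas 2.3.3 and numpy 2.4.6.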

Additional observations from a re-analysis of the deposited data

How the results depend on the processing

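No paired analysis was possible because each pair of samples shares 1 list, and for the same reason no replicate could be left out. In all 88 values were recomputed under an alternative: 77 stayed inside the counting interval (shares) or moved by at most 1.5 times (counts, spacings, percentages), and 11 moved by more. With −log10 q of at least 5, TC-32 SMC1 fell to 1 peak in PCDHB and 0 between PCDHB and PCDHG, and TC-71 SMC1 to 0 in PCDHB. TC-32 H3K27ac then had 2 domains in PCDHB, and TC-71 H3K27ac 3 in PCDHA, 1 in PCDHB and 11 over the locus, under the 12 of TC-32, which reverses the order of the lines. The median TC-32 SMC1 spacing rose to 109.1 kb. Borders moved 10 kb down put 2 TC-71 SMC1 peaks in PCDHB, since the border then divides the pair, and left 0 domains of either line between PCDHB and PCDHG. The locus still had more SMC1 peaks in TC-71 at −log10 q of at least 5 (9 against 7). The lists hold 9 to 19 peaks per mark and line here, which limits every share.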
